A study of Homo sapiens with 18 samples.

Results

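The genes described here are 10 genes of calcium channel gamma subunits and of the machinery of regulated exocytosis, out of 58735 genes in each of the 2 count tables. They are CACNG6, CACNG7 and CACNG8, the priming genes UNC13A, UNC13B and UNC13D, the calcium sensors SYT1 and SYT7, and the membrane fusion genes SNAP25 and STX1A. They were picked by name, with earlier results of these data known, among them their response to RAD21 knockdown in A549 cells. The values of that comparison are therefore given below as a description. Where its calls are mentioned, nothing is read from the members passing the test. How far the other comparisons shaped the choice is not known, so their calls are not taken as independent of it. RNA sequencing was done in A549 and H358, established human lung adenocarcinoma cell lines, in 6 groups of 3 libraries. In both lines, cells carrying a lentiviral shRNA against RAD21 (shRAD21) were compared with cells carrying the control vector (shNC), and A549 cells overexpressing RAD21 (RAD21OE) were compared with A549 cells carrying the empty vector (EV). RAD21 encodes a core subunit of cohesin, a ring-shaped complex that links sister chromatids and extrudes chromatin loops. Constructs were given to whole cultures, shRAD21 and shNC in both lines and RAD21OE and EV in A549 alone. The labels name neither clones nor the number of shRNAs, nor whether replicate libraries came from separate cultures. The p-values therefore rest on the scatter among libraries, and that scatter may be technical.

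Voltage-gated calcium channels let calcium into the cell, and some of their gamma subunits, among them CACNG7 and CACNG8, act in the brain mainly as auxiliary subunits that carry AMPA-type glutamate receptors to the synapse. In neurons and endocrine cells, a calcium rise triggers the fusion of docked vesicles. UNC13 proteins prime the vesicle by opening syntaxin, SNAP25 and syntaxin 1A form the fusion complex on the plasma membrane with a vesicle SNARE, and synaptotagmins bind calcium and start fusion. UNC13D serves a related role in the granules of blood cells, and UNC13B is found in many tissues. Several of these genes are best known from neurons, and the lines studied here are epithelial.

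The 3 gamma subunit genes lie side by side on the plus strand of chromosome 19 (hg38): CACNG7 at chr19:53909335-53943941, CACNG8 at chr19:53963040-53990215 and CACNG6 at chr19:53992288-54012669. Together they span 103.335 kb, with 19.098 kb between CACNG7 and CACNG8 and 2.072 kb between CACNG8 and CACNG6. UNC13A lies on the minus strand of the same chromosome, at chr19:17601328-17688365. The other members are on separate chromosomes: UNC13B at chr9:35161992-35405338, UNC13D at chr17:75827225-75844717, SYT1 at chr12:78863993-79452008, SYT7 at chr11:61515313-61581148, SNAP25 at chr20:10218830-10307418 and STX1A at chr7:73699206-73719672. UNC13D, SYT7 and STX1A are on the minus strand and the other 3 on the plus strand. No source used here says whether the counting used strand. This matters for STX1A, since 17.93% of its exon sequence overlaps BUD23 on the other strand, so reads of the pair could not be told apart there without strand. The overlap with genes of either strand was 1.04% for CACNG8, 0.82% for SYT7, 0.22% for SYT1 and 0 for the other 6 members.

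Promoter sequences from RefSeq (GRCh38.p14) were at hand for 5 of the 10 members. Those of 3 genes are shown, because both chromosome 19 genes among them, CACNG6 and UNC13A, fell with RAD21 knockdown in A549 and moved in opposite directions with RAD21 overexpression, while STX1A changed least among the members that fell. Each runs 5′ to 3′ on the strand of its gene and ends before the annotated gene. Those of UNC13A and STX1A reach up to the first base of the gene, and that of CACNG6, whose RefSeq start site lies 651 bases upstream of the annotated one, ends there. Capitals mark the GC box, GGGCGG or its reverse complement CCGCCC, a sequence bound by SP family factors.
CACNG6, chr19:53991387-53991636, plus strand: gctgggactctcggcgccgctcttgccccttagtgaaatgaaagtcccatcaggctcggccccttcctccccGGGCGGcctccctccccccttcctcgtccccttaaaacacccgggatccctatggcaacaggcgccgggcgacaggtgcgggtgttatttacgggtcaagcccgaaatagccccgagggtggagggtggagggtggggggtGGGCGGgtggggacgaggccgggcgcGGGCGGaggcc
UNC13A, chr19:17688366-17688604, minus strand: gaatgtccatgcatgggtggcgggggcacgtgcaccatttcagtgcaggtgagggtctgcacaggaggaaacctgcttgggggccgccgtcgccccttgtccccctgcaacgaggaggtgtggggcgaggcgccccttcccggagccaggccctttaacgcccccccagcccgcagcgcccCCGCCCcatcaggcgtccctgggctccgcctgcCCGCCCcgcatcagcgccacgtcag
STX1A, chr7:73719673-73719919, minus strand: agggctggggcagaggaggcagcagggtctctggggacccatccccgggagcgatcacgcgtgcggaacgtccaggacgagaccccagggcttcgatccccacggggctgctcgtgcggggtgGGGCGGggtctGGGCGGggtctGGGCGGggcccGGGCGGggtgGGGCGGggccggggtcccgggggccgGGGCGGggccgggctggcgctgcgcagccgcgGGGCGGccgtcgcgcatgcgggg
The STX1A sequence held 7 GC boxes, the first 127 and the last 26 bases before the start site, all on the strand of the gene. The CACNG6 sequence held 3, also on the strand of the gene, and the UNC13A sequence held 2, both on the other strand. A GC box was present in 42.6% of 35116 RefSeq promoters over the 250 bases before the start site. The 3 sequences are rich in G and C over those 250 bases, at 69.2% in CACNG6, 72.0% in UNC13A and 80.8% in STX1A, against a median of 58.0% over all promoters. Of 7 motifs searched on both strands, the CCAAT box (CCAAT, in 32% of promoters) was found in the promoters of SYT1 and UNC13B, neither of which is shown. The other 5, with their share of all promoters, were not found in the members' promoters: the TATA box TATAAA (10.7%), the AP-1 site TGANTCA (6.57%), the ETS site CCGGAAG (8.52%), the REST half-site TCAGCAC (3.55%) and a CTCF core AGGGGGC (13.3%). These matches describe the letters only, and no binding was measured.

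The knockdown libraries held 15155077 to 19277568 counts and the overexpression libraries 13024640 to 14276335. Levels are CPM, counts relative to the library size after scaling by the TMM factor. The knockdown and overexpression libraries were deposited in separate count tables, so levels were not compared between them. RAD21 itself was 252.9 to 256.9 CPM in A549 shNC and 101.1 to 131.8 in A549 shRAD21, 568.8 to 602.8 in H358 shNC and 378.8 to 432.6 in H358 shRAD21, and 194.4 to 208.6 in EV and 1306 to 1520 in RAD21OE, in the direction each label states. The log2 fold change of RAD21 was -1.08 and -0.51 in the knockdowns and 2.85 in the overexpression. Replicate 3 of A549 shRAD21 and replicate 3 of RAD21OE stood apart from their groups. Their median absolute log2 difference from the other replicates was 0.304 and 0.297 in the first case and 0.257 and 0.223 in the second, against at most 0.14 in other pairs, and results that rest on them are also given without them. As these are bulk libraries, fewer cells that express a gene and less RNA per cell cannot be told apart.

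Both lines carried the epithelial keratins KRT7, KRT8 and KRT18, and they differed in EPCAM, at 3.65 CPM in A549 shNC and 539.5 in H358 shNC. NKX2-1, which marks the lung lineage, was 0.064 CPM in A549 shNC and 121.5 in H358 shNC, and the surfactant genes SFTPB, SFTPC and SFTPD stayed under 0.7 CPM in every group. Of 15 neuroendocrine markers, NEUROD1, INSM1 and GRP had no count in the A549 knockdown libraries or in H358. Others were expressed, and 7 of the 15 were tested, among them SYP, CHGB, SCG2 and DDC. The 15 summed to 634.2 to 665.6 CPM in A549 shNC, mostly UCHL1 and ENO2, and to 37.47 to 39.4 CPM in H358 shNC.

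The gamma subunit genes were expressed in A549 and nearly silent in H358, and in A549 all 3 were much lower in the knockdown. CACNG7 was at 56.61, 52.46 and 55.27 CPM in the A549 shNC libraries and at 3.547, 2.921 and 1.704 CPM in the shRAD21 libraries. Every shRAD21 library was thus far below every control, and the mean level was 4.97% of the control mean. The log2 fold change was -4.31 (SE 0.17), the 27th lowest of the 18939 genes tested. Without shRAD21 replicate 3, the library with the lowest level, it was -4.08.

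CACNG8, the middle gene of the cluster, measured 30.62, 36.2 and 28.2 CPM in A549 shNC and 8.012, 7.366 and 10.56 CPM in shRAD21. CACNG6, which encodes a gamma subunit first described with calcium channels, measured 21.11, 24.09 and 21.4 CPM in shNC and 4.71, 6.731 and 4.703 CPM in shRAD21. Neither gene had overlapping groups, and the remaining levels were close, at 27.3% of control for CACNG8 and 24.2% for CACNG6. Their log2 fold changes were -1.88 (SE 0.16) and -2.04 (SE 0.16). Without shRAD21 replicate 3 they were -2.04 and -1.96.

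In H358 these 3 genes gave almost no reads. CACNG6 had 0 counts in all 6 libraries, which allows up to 0.054 CPM over the control libraries and 0.0571 over the shRAD21 libraries. CACNG7 had 1 count in 1 control library and none elsewhere. CACNG8 had 2, 6 and 9 counts in the controls and 7, 8 and 8 in shRAD21, a ratio of CPM of 1.43 with an exact 95% interval of 0.732 to 2.85 that covers counting error only. A fall of CACNG6 or CACNG7 in H358 was therefore not detectable at this depth. For CACNG8 the lower bound of 0.732 lies above the 27.3% of control left in A549. The knockdowns differed in strength, with RAD21 itself left at 70.3% of control in H358 and 47.3% in A549. The A549 shNC level of CACNG6 was at least 411-fold higher than the limit that 0 counts allow over the H358 shNC group, and that of CACNG8 was 101-fold higher than in H358 shNC.

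Under RAD21 overexpression in A549 the cluster did not move as one. CACNG7 went from 20.18, 22.21 and 20.35 CPM in EV to 30.66, 36.12 and 45.33 CPM in RAD21OE. All RAD21OE libraries were above all EV libraries, replicate 3 the most, and CACNG7 rose by a log2 fold change of 0.84 (SE 0.14, adjusted p = 0.000904, edgeR quasi-likelihood test). Without RAD21OE replicate 3 the log2 fold change was 0.68.

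CACNG6 measured 32.69, 39.12 and 35.18 CPM in EV and 16.74, 19.26 and 24.09 CPM in RAD21OE. The groups did not overlap, and CACNG6 fell with a log2 fold change of -0.83 (SE 0.14, adjusted p = 0.000868), or -0.99 without replicate 3. CACNG8 measured 41.38, 43.6 and 44.59 CPM in EV and 32.99, 33.95 and 32.31 CPM in RAD21OE. It too fell without overlap, by less, with a log2 fold change of -0.38 (SE 0.09, adjusted p = 0.0098). Thus CACNG7 was lower with less RAD21 and higher with more, whereas its neighbours CACNG8 and CACNG6 were lower in both.

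**Figure D1:**
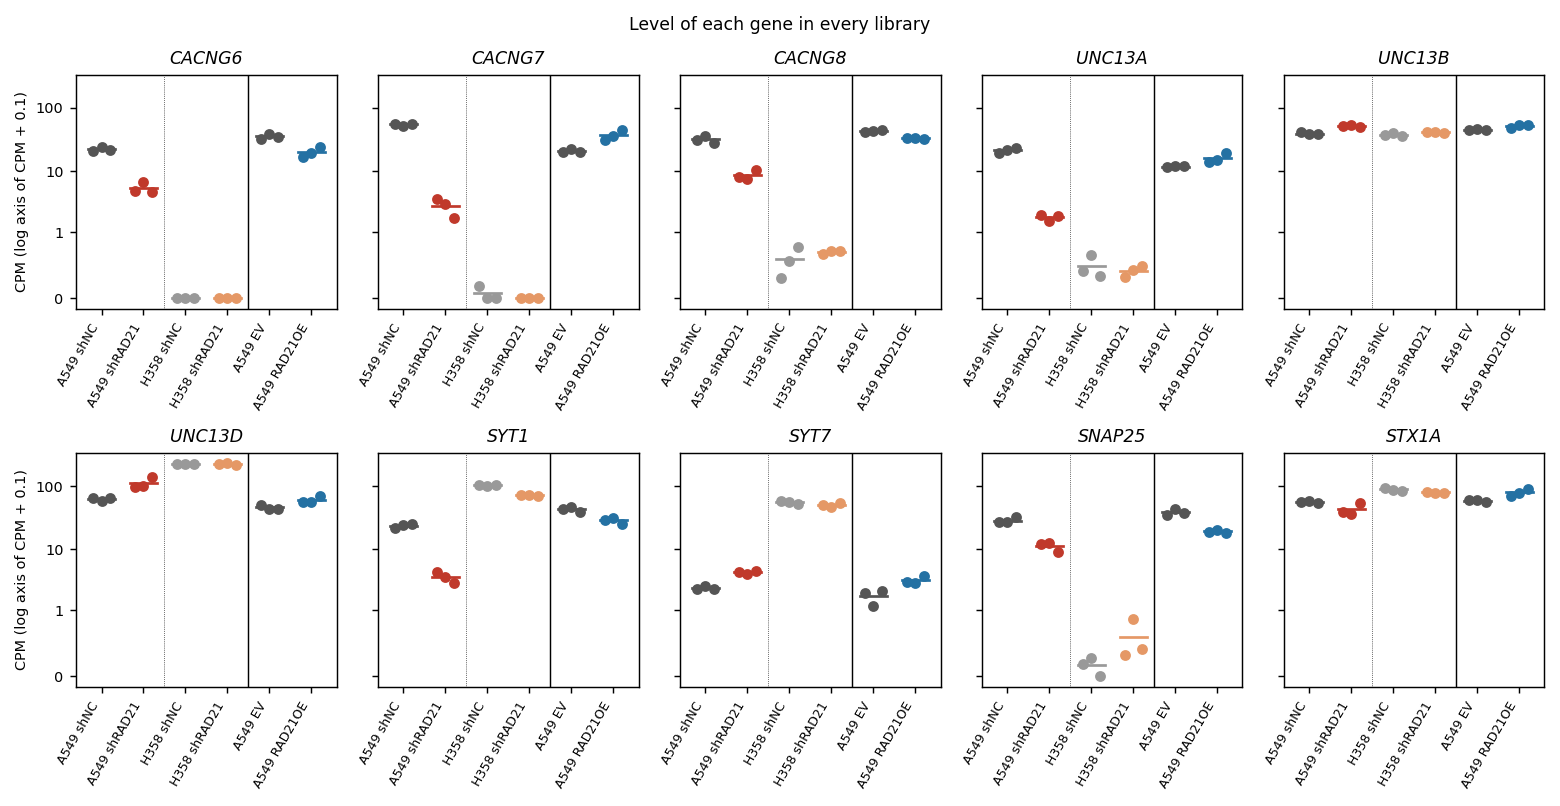
Level of each of the 10 genes in every library, in CPM on a log axis of CPM + 0.1, by group, with 1 point per library. CACNG6, CACNG7, CACNG8, UNC13A and SNAP25 lie below 1 CPM in all H358 libraries, and in A549 the shNC and shRAD21 points of no gene overlap. The knockdown libraries and the overexpression libraries are not compared in level.

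Around CACNG7, 122 genes other than the gamma genes have their start site within 500 kb, and 22 of them were tested in the knockdown table. Of these 22, 8 were lower in A549 shRAD21 and 0 were higher by edgeR, at an unadjusted p under 0.05 or by DESeq2, beside 10.9% lower and 14.4% higher over all genes. The median log2 fold change of the 22 was -0.52 against 0.0 over all genes. LILRB3, at under 1 CPM, had a log2 fold change of -1.28, and the pseudogene TPM3P6, at 0.06625 CPM in the control, was too low to read. None of the 8 fell by as much as the 3 gamma genes.

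In the overexpression, 5 of 20 tested neighbours were higher and 1 was lower, beside 14.1% higher and 13.7% lower over all genes. Their median log2 fold change was 0.13. AC245052.4 rose the most, from 1.161 to 5.281 CPM (log2 fold change 2.17, SE 0.28, adjusted p = 0.000153), and 14.17% of its exons lie over an opposite-strand gene.

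**Figure D2:**
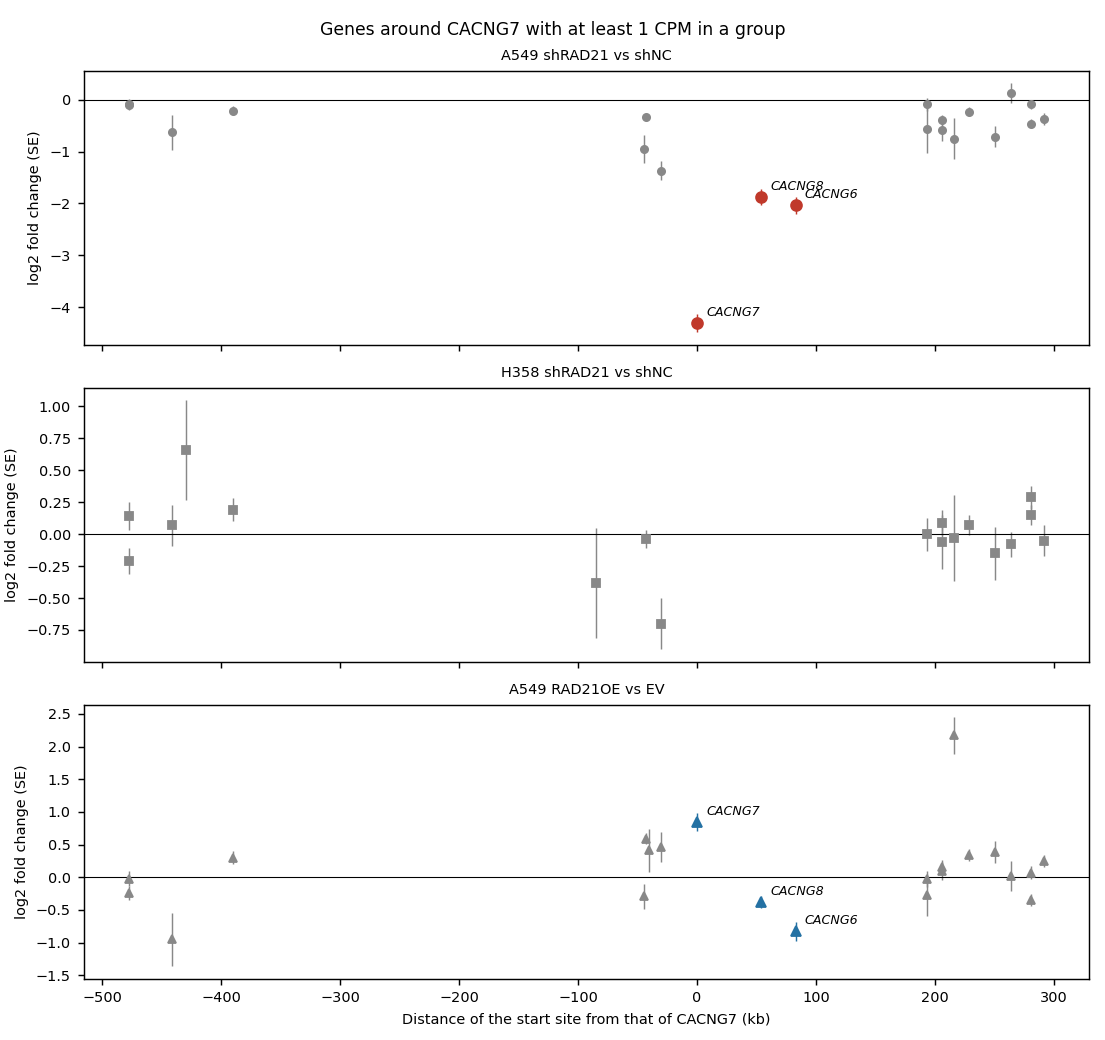
Log2 fold change (bars, SE) of genes with at least 1 CPM in a group, by distance of their start site from that of CACNG7 in kb, 1 panel per comparison, each with its own vertical scale. In A549 knockdown the gamma genes, at -4.31, -1.88 and -2.04, are coloured and named and other genes are grey, and in overexpression CACNG7 at 0.84 lies above 0 while CACNG8 at -0.38 and CACNG6 at -0.83 lie below.

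Of the UNC13 priming genes, UNC13A alone was lower in A549 shRAD21. UNC13A, the form that primes synaptic vesicles in neurons, measured 19.46, 21.55 and 22.81 CPM in shNC and 1.957, 1.524 and 1.908 CPM in shRAD21. The shRAD21 libraries lay close together and all far below the controls, at 8.45% of the control mean. The log2 fold change was -3.56 (SE 0.18), the 72nd lowest of the genes tested, and -3.60 without replicate 3. In H358, UNC13A had 3, 8 and 2 counts in shNC and 2, 3 and 4 in shRAD21, a ratio of 0.732 with an exact 95% interval of 0.276 to 1.85 for counting error. Its A549 shNC level was 95.3-fold higher than that of H358 shNC.

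With RAD21 overexpression, UNC13A went from 11.49, 11.9 and 11.9 CPM to 14.13, 15.06 and 19.57 CPM. The RAD21OE libraries were all higher, with replicate 3 farthest. UNC13A rose, the log2 fold change being 0.47 (SE 0.14, adjusted p = 0.0281). Without replicate 3 the log2 fold change was 0.31 and the adjusted p was 0.0499, and without an EV library the adjusted p reached 0.0975.

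UNC13B, the widely expressed form, had a similar control level in both lines. It measured 41.48, 38.47 and 38.05 CPM in A549 shNC and 51.74, 53.53 and 50.23 CPM in shRAD21, so all knockdown libraries were higher (log2 fold change 0.40, SE 0.08). In H358 it measured 37.3, 40.6 and 35.73 CPM in shNC and 41.87, 41.14 and 40.09 CPM in shRAD21, and the ranges overlapped (log2 fold change 0.11, SE 0.08, adjusted p = 0.415). In the overexpression it measured 44.18, 46.25 and 45.03 CPM in EV and 48.74, 54.48 and 52.97 CPM in RAD21OE. The groups did not overlap there, yet UNC13B was the 1 member that did not pass the test (log2 fold change 0.21, SE 0.09, adjusted p = 0.11).

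UNC13D encodes the form that lytic granules of T cells and natural killer cells need for release, and it was the most abundant UNC13 gene per length in both lines. It measured 63.99, 58.21 and 65.4 CPM in A549 shNC and 98.17, 100.1 and 138.4 CPM in shRAD21. Replicate 3 was the highest and all 3 lay above the controls. The log2 fold change was 0.84 (SE 0.10), and 0.67 without replicate 3.

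In H358, UNC13D was higher and flat, at 223.4, 224.7 and 222.5 CPM in shNC and 222.4, 227.9 and 214.9 CPM in shRAD21. The groups overlapped (log2 fold change -0.01, SE 0.10, adjusted p = 0.977). In the overexpression it measured 51.1, 43.14 and 43.85 CPM in EV and 56.73, 56.58 and 71.17 CPM in RAD21OE. It rose without overlap (log2 fold change 0.42, SE 0.11, adjusted p = 0.0157), with replicate 3 again the highest, and the log2 fold change was 0.30 without it.

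The region around UNC13A was examined in the same way. Of 61 other genes within 500 kb, 32 were tested in the knockdown table, and in A549 shRAD21 1 was higher and 11 were lower, beside 14.4% and 10.9% of all genes, with a median log2 fold change of -0.27. The 1 higher gene, B3GNT3, a glycosyltransferase gene, went from 11.06 to 23.7 CPM (log2 fold change 1.10). The nearest tested gene on each side, MAP1S at 30.9 kb and COLGALT1 at 132.8 kb, had log2 fold changes of -0.35 and -0.42, and that of UNC13A was -3.56. In H358, 2 of 32 were lower and 0 higher by edgeR (2 higher at an unadjusted p under 0.05, 0 by DESeq2). In the overexpression, 5 of 28 were higher and 1 lower, beside 14.1% and 13.7% of all genes, and COLGALT1 rose with a log2 fold change of 0.28 (adjusted p = 0.0253). FAM129C rose the most, from 0.4458 to 1.337 CPM (log2 fold change 1.56, SE 0.36, adjusted p = 0.00729).

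The calcium sensors SYT1 and SYT7 moved in opposite directions in A549. SYT1, the fast calcium sensor of synaptic vesicles, measured 21.72, 24.02 and 25.01 CPM in A549 shNC and 4.343, 3.556 and 2.863 CPM in shRAD21. All knockdown libraries were lower, at 15.2% of the control mean (log2 fold change -2.70, SE 0.12), and without replicate 3 the log2 fold change was -2.57.

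SYT1 was also the 1 member called in H358 shRAD21, where 8.4% of all genes tested were, 3.78% being higher and 4.62% lower. Of the 10 members, only 5 had at least 1 CPM in an H358 group. The others passed the filter on low counts through their A549 levels, so their lack of a call in H358 says little. The count of called members is therefore not set against the share of all genes. Its level was higher in this line, at 103.5, 101.6 and 105.4 CPM in shNC and 73.69, 72.05 and 70.71 CPM in shRAD21. Within each group the libraries agree within 4 CPM and the groups are well apart. SYT1 fell to 69.7% of the control mean (log2 fold change -0.52, SE 0.08, adjusted p = 0.000605). No gene was tested within 500 kb of its start site, where 5 others are annotated.

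In the overexpression SYT1 was lower as well, at 43.44, 46.55 and 39.52 CPM in EV and 29.67, 31.32 and 25.03 CPM in RAD21OE. The ranges did not overlap, with replicate 3 the lowest. SYT1 fell with a log2 fold change of -0.59 (SE 0.11, adjusted p = 0.00243), or -0.50 without replicate 3. It was therefore lower than its control in all 3 comparisons.

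SYT7, a slower and more sensitive calcium sensor that also acts in lysosome exocytosis, was barely expressed in A549. It measured 2.318, 2.609 and 2.267 CPM in shNC and 4.281, 4.064 and 4.566 CPM in shRAD21. All knockdown libraries were higher (log2 fold change 0.84, SE 0.15). In H358 its shNC level was 23.2-fold that of A549 shNC, with 58.73, 56.32 and 51.64 CPM in shNC and 50.14, 47.03 and 54.56 CPM in shRAD21. The H358 groups overlapped (log2 fold change -0.14, SE 0.08, adjusted p = 0.365).

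Overexpression moved SYT7 from 1.988, 1.213 and 2.13 CPM to 2.967, 2.923 and 3.711 CPM. The groups did not overlap and SYT7 rose (log2 fold change 0.84, SE 0.26, adjusted p = 0.0291), at low levels that leave a wide error. Without RAD21OE replicate 3 the log2 fold change was 0.72 and the call was lost (adjusted p = 0.057).

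Of the SNARE genes of the plasma membrane, SNAP25 was lower in both A549 comparisons. SNAP25 measured 26.78, 27.03 and 32.17 CPM in A549 shNC and 12.17, 12.51 and 8.928 CPM in shRAD21. The groups were well apart, at 39.1% of control (log2 fold change -1.35, SE 0.18), and without replicate 3, the lowest library, the log2 fold change was -1.21. In the overexpression it went from 34.9, 43.37 and 37.53 CPM to 19.07, 20.31 and 18.48 CPM. All RAD21OE libraries lay below all EV libraries, and the level fell to 50% of the EV mean (log2 fold change -1.0, SE 0.12, adjusted p = 8.28e-05), the smallest adjusted p among the members in the overexpression.

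SNAP25 was close to silent in H358, with 1, 2 and 0 counts in shNC and 2, 12 and 3 in shRAD21. The ratio of CPM was 5.99, with an exact 95% interval of 1.73 to 31.9 for counting error only, and 12 of the 17 shRAD21 counts came from replicate 2. The edgeR test did not call it, while a DESeq2 Wald test did (adjusted p = 0.0413).

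STX1A, the syntaxin of synaptic and endocrine vesicle release, changed little. It measured 56.79, 57.81 and 54.34 CPM in A549 shNC and 39.08, 36.19 and 53.3 CPM in shRAD21. Replicate 3 sat just under the lowest control and the other libraries well below (log2 fold change -0.40, SE 0.11, and -0.58 without replicate 3). With offsets for GC content and exon length the log2 fold change was -0.17. The call was lost without shRAD21 replicate 1, without replicate 2, and when the 6 A549 libraries were fitted alone.

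In H358, STX1A measured 95.03, 86.66 and 84.14 CPM in shNC and 81.68, 79.33 and 78.84 CPM in shRAD21. The ranges did not overlap, which held for 36.1% of all genes, and the test was not passed (log2 fold change -0.15, SE 0.10, adjusted p = 0.43). In the overexpression STX1A went from 60.97, 61.26 and 55.38 CPM to 70.71, 78.09 and 91.32 CPM. It rose with replicate 3 highest (log2 fold change 0.43, SE 0.10, adjusted p = 0.00815), and the log2 fold change was 0.33 without that library.

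**Figure D3:**
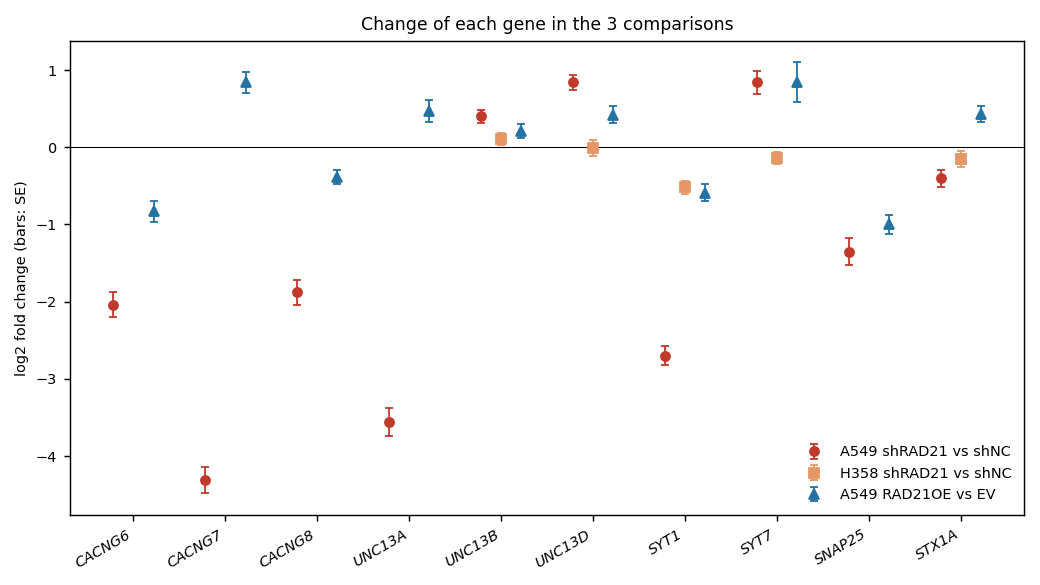
Log2 fold change of each of the 10 genes (vertical axis, bars are SE) in the 2 RAD21 knockdowns and in the RAD21 overexpression. Genes under 1 CPM in both H358 groups have no H358 point. SYT1 is below 0 in all 3 comparisons, at -2.70, -0.52 and -0.59, and CACNG7 goes from -4.31 in A549 knockdown to 0.84 in overexpression.

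Set side by side, the A549 knockdown values run from -4.31 for CACNG7 to 0.84 for UNC13D and SYT7, with 7 members lower, 3 higher and a median of -1.62. All 10 passed the test, where 25.2% of all genes did, and the ranges of all 10 did not overlap, against 32.7% of all genes. Nothing is read from these counts, since this comparison chose the members. In H358, 5 members had at least 1 CPM in a group, 1 of them was called, and their median log2 fold change was -0.14.

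In the overexpression, 9 of 10 members passed the test, where 27.8% of all genes did. Higher were 5 (CACNG7, UNC13A, UNC13D, SYT7 and STX1A) and lower 4 (CACNG6, CACNG8, SYT1 and SNAP25), against 14.1% and 13.7% of all genes. The ranges did not overlap for any of the 10, against 45.4% of all genes, and the median was 0.32. Of the 9, CACNG7, UNC13A and STX1A moved opposite to the A549 knockdown, and the other 6 moved the same way. Over all genes called in both comparisons, which share no libraries, 536 of 1574 (34.1%) moved the same way. These shares are given as counts only.

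Base composition moved with both A549 comparisons and with that of H358. Across genes, which are not independent replicates, the Spearman correlation of GC content with the log2 fold change was -0.326 in the A549 knockdown, 0.183 in H358 and 0.316 in the overexpression. The members range from 39.58% GC in SNAP25 and 41.58% in SYT1 to 61.9% in CACNG7 and 63.28% in UNC13D. With offsets for GC content and exon length, all 10 members were called in the overexpression, with CACNG7 at 0.72, CACNG6 at -0.93 and SYT1 at -0.46, and UNC13B gained a call at 0.26 (adjusted p = 0.0112). In H358 under the same offsets 4 members were called: SYT1 at -0.47, SYT7 at -0.21, STX1A at -0.24 and SNAP25, at its few counts.

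The members differed in level as well as in response. Per kilobase of exon, CACNG7 was the highest in A549 shNC at 19.6 CPM per kb, followed by STX1A at 15.2 and CACNG6 at 12. SYT7 was the lowest at 0.403 CPM per kb. In H358 shNC the order was UNC13D at 28.8 CPM per kb, STX1A at 24.0, SYT1 at 15.9, SYT7 at 9.33 and UNC13B at 2.11. Among the 4 knockdown-table groups of each gene, neighbouring groups in the order of level overlapped only between the H358 groups for CACNG6, CACNG7, CACNG8, UNC13A, UNC13D and SYT7, and for UNC13B among H358 shRAD21, A549 shNC and H358 shNC.

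The genes whose level followed a member most closely over the 12 knockdown libraries are given as a description, since line and knockdown shape all of them. For CACNG7 they were LITAF (Pearson r of log2 CPM 0.9969), PLCXD3 (0.9962) and MYOCD (0.9961), among 13292 genes compared. For UNC13A they were RNF215 (0.9917), CSF1 (0.9907) and ANGPTL4 (0.9903). For SYT1 they were EFEMP1 (0.9967), GUCY1A2 (0.9934) and SLC8A1 (0.9922). EFEMP1, a matrix protein gene, had log2 fold changes of -3.87, -0.46 and -0.61 in the A549 knockdown, the H358 knockdown and the overexpression, in that order, beside -2.70, -0.52 and -0.59 for SYT1.

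The other genes of calcium channels and exocytosis were taken from 10 lists of 117 genes. In A549 shRAD21, 18 of 91 tested were higher and 15 lower, together 36.3% against 25.2% of all genes, with a median log2 fold change of 0.04. In H358 shRAD21, 6 of 91 were higher and 7 lower (14.3%, against 8.4% of all genes), and in RAD21OE 14 of 80 were higher and 16 lower (37.5%, against 27.8%). The medians in the last cases were -0.04 and -0.07. Without shRAD21 replicate 3, 30 of 93 were higher and 26 lower in A549 shRAD21, when 8430 of all 19584 genes tested were called. Without RAD21OE replicate 3, 16 of 81 were higher and 19 lower, when 5536 of all 15909 were called. Calls thus lay on both sides of 0 in each comparison.

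Of the pore-forming subunits of calcium channels, 2 of 6 tested were higher and 2 lower in A549 shRAD21. CACNA1G, a T-type channel pore, went from 48.49 ± 5.11 to 9.90 ± 1.21 CPM (SD, n = 3, log2 fold change -2.29), and CACNA1A, a P/Q-type pore, had a log2 fold change of -1.62. In RAD21OE both rose, CACNA1A by a log2 fold change of 1.48 (adjusted p = 0.0033) and CACNA1G by 0.35 (adjusted p = 0.0333). CACNA1D, an L-type pore, went the other way, at 0.36 in the A549 knockdown and -0.58 in RAD21OE (adjusted p = 0.00429). In H358 the 1 call was CACNA1H, higher by a log2 fold change of 0.35 (adjusted p = 0.0141).

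Of the 6 tested beta and alpha2delta subunits, which set trafficking and gating, 2 were lower in A549 shRAD21, CACNA2D1 at -1.03 and CACNB1 at -0.44. CACNB1 also fell in H358 (log2 fold change -0.53, adjusted p = 0.00804), and 0 passed in RAD21OE by edgeR, by DESeq2 or at an unadjusted p under 0.05. Of the 5 other gamma subunits, CACNG2 and CACNG3 had no count in the A549 libraries. CACNG4, the 1 tested, had a mean of 31.2 CPM in A549 shNC and log2 fold changes of -0.43 in A549 shRAD21 and -0.05 in RAD21OE (adjusted p = 0.794). The AMPA receptor subunit genes GRIA1, GRIA2, GRIA3 and GRIA4, whose products are the partners of the gamma subunits in neurons, each had a mean under 1 CPM in every group. In A549 shNC the means were 0.0236, 0, 0.0918 and 0 CPM. Most of the counts of that list came from the cornichon genes CNIH2 and CNIH3, at 2.77 and 0.92 CPM in A549 shNC, which encode auxiliary proteins. In the knockdown, CNIH3 was higher in A549 (0.99) and CNIH2 in H358 (1.16, adjusted p = 0.00272).

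The other SNARE genes include vesicle and plasma membrane partners of the members. In A549 shRAD21 STX3 (0.76) and VAMP8 (0.50) were higher and VAMP1 (-1.05) lower, of 15. In H358 STX2 was higher (0.90, adjusted p = 0.00143) and VAMP1 lower (-0.48, adjusted p = 0.0418). In RAD21OE 5 of 14 fell, among them STX3 (-0.60, adjusted p = 0.00192) and VAMP8 (-0.62, adjusted p = 0.00295), and STX11 alone rose (1.02, adjusted p = 0.00935).

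CPLX2, a complexin gene, a regulator of SNARE assembly, rose in both A549 comparisons and had almost no reads in H358. It went from 1279 CPM in A549 shNC to 1589 in shRAD21 (log2 fold change 0.31, adjusted p = 0.0212), and from 908.6 in EV to 1373 in RAD21OE (log2 fold change 0.60, adjusted p = 0.00024). Of the 11 tested regulators of SNARE assembly, the list CPLX2 belongs to, 2 were higher and 1 lower in A549 shRAD21, 1 and 1 in H358, and 2 and 3 in RAD21OE. Without shRAD21 replicate 3 the A549 counts were 7 higher and 3 lower.

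Of 12 other priming, tethering and active zone genes tested in the knockdown, 3 were higher and 2 lower in A549, led by CADPS2 (2.79, under 1.2 CPM) and BAIAP3 (-1.29), and 0 were called in H358 by edgeR (1 at an unadjusted p under 0.05, 0 by DESeq2). In RAD21OE PPFIA3 (0.77, adjusted p = 0.000557) and RIMS4 (0.90, adjusted p = 0.000852) rose and RIMS1 fell (-2.97, adjusted p = 0.000223), with 3 higher and 1 lower of 10. RIMS1 was low in the A549 knockdown libraries, at a mean of 0.4992 CPM in shNC and 0.6577 in shRAD21. The 9 exocyst subunits, which tether vesicles, gave 1 call in each comparison: EXOC6 in A549 shRAD21 (0.56), EXOC5 in H358 (-0.29, adjusted p = 0.0451) and EXOC6B in RAD21OE (0.54, adjusted p = 0.000797).

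Of 15 genes of RAB3, RAB27 and their effectors, 4 were higher and 2 lower in A549 shRAD21, 1 and 3 in H358, and 3 and 4 in RAD21OE. SYTL5, a RAB27 effector, was at 2.49 in A549 shRAD21 and fell in H358 (-0.97, adjusted p = 0.000125). DOC2B, a calcium sensor that binds UNC13 proteins, was at -2.36 in A549 shRAD21 and rose in RAD21OE (1.17, adjusted p = 0.000167). RAB3B rose in H358 (1.06, adjusted p = 0.0319) and fell in RAD21OE (-0.88, adjusted p = 6e-05).

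Of the 13 other synaptotagmins tested in the knockdown, 3 were higher and 4 lower in A549, and 1 was higher in H358 (SYT8, 0.75, adjusted p = 0.00735). In RAD21OE, 2 of 8 were higher and 2 lower. SYT11 was at -2.59 in A549 shRAD21 and rose in RAD21OE (0.93, adjusted p = 0.00712). SYT13 was at 0.87 in A549 shRAD21 and fell in RAD21OE (-1.26, adjusted p = 2.98e-05). SYT15 was lower in both, at -1.96 and -0.45 (adjusted p = 0.0447), as SYT1 was.

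**Figure D4:**
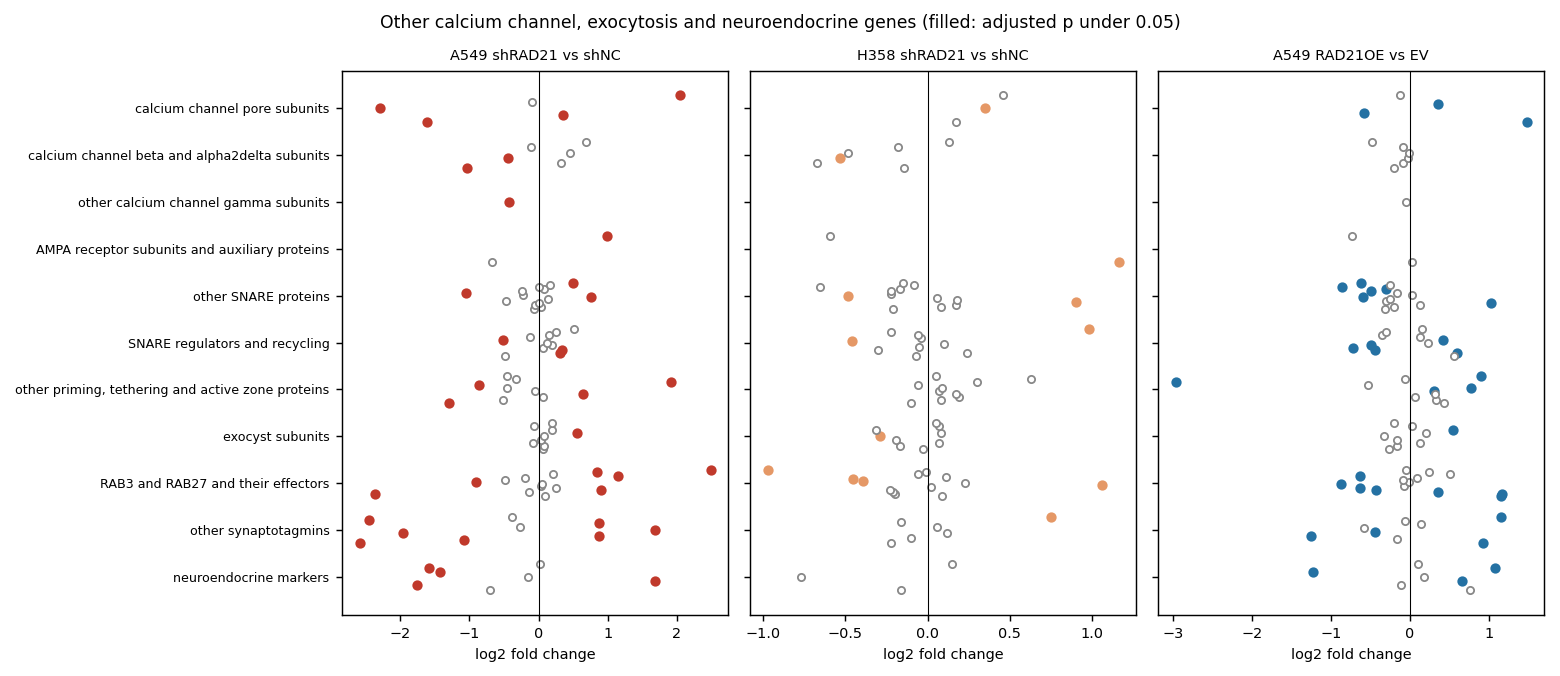
Log2 fold change of the genes of each list (rows) in the 3 comparisons (panels), 1 point per tested gene with at least 1 CPM in a group, filled where the adjusted p is under 0.05. Points lie on both sides of 0 in most lists, and filled points are fewest in H358, where 13 of the 91 tested genes of the 10 calcium channel and exocytosis lists were called.

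Neuroendocrine markers were measured beside the members, since such cells use the same release machinery. Their summed level was 634.2 to 665.6 CPM in A549 shNC and 649.2 to 669.3 in shRAD21, 37.47 to 39.4 and 37.16 to 38.36 in H358, and 658.9 to 691.2 in EV and 673.4 to 789.5 in RAD21OE. In A549 this sum was mostly UCHL1 (570.7 CPM in shNC) and ENO2 (60.6 CPM), which many cell types express. Of 7 tested, 1 was higher (DDC) and 3 lower in A549 shRAD21, among them SYP at -1.59 and CHGB at -1.76. In H358, 0 were called by edgeR or DESeq2, and 2 had an unadjusted p under 0.05. In RAD21OE SYP (1.08, adjusted p = 0.0103) and DDC (0.66, adjusted p = 0.0128) rose and SCG2 fell (-1.23, adjusted p = 0.000233). The part of such cells in the members' values was not tested.

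REST, which encodes a repressor of neuronal genes in other tissues, had log2 fold changes of 0.16, 0.03 and -0.19 in A549 knockdown, H358 knockdown and overexpression, and did not pass the test in H358 (adjusted p = 0.865) or in the overexpression (adjusted p = 0.359). Of REST and its corepressors, 9 genes in all, 2 were higher and 1 lower in A549 shRAD21, 0 were called in H358 by edgeR (2 at an unadjusted p under 0.05, 1 by DESeq2), and 1 was higher and 1 lower in RAD21OE. RCOR2 was the lower one in A549 shRAD21, at -1.31.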

How the data were processed

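RNA sequencing was done in 18 libraries, 3 in each of 6 groups taken from the labels. Per the labels' protocols, TRIzol served for RNA extraction and a VAHTS kit for the libraries. The 2 deposited tables hold raw read counts for each gene. Tools listed, without role or order, in the submitters' processing notes are featureCounts 1.5.0-p3, HISAT2 2.0.5 and fastp, with hg38 as the build. Other deposited columns give each gene's coordinates, strand and length, and for all 58735 genes they equal those of GENCODE 29. Unmatched count columns numbered 0.

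Each table was fitted on its own in R 4.3.3 with edgeR 4.0.16 (filterByExpr, TMM, quasi-likelihood F-test, two-sided), leaving 18939 and 15462 genes, with Benjamini-Hochberg adjustment over all of them and calls at an adjusted p under 0.05. The SE is the absolute log2 fold change divided by the square root of F. An exact permutation test of 3 against 3 cannot go below 0.1. Genes under 1 CPM in both groups get counts with an exact 95% interval, and a count of 0 allows up to 3 counts. Alternatives used DESeq2 1.42.0, limma 3.58.1, other filters and scalings, a replicate block, offsets for GC content (from the longest GENCODE transcript) and exon length, and leaving out each library. On simulated counts, with changes set in genes of at least 1 CPM, the fit recovered 60% to 63% of 1.5-fold changes. It recovered 81% to 88% of 2-fold changes. Of the genes called there, 5.26% to 6.96% were false, so smaller changes can be missed.

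The members and lists were chosen with earlier results of these data known. All members are named. From each list the text takes up to 2 higher and 2 lower calls per comparison with the smallest adjusted p. Around CACNG7, UNC13A and SYT1 it takes tested genes within 500 kb that changed at least 2-fold and the nearest on each side, and for each of these the 3 protein-coding genes most like it. Some genes that this rule takes are not reported here.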

Additional observations from a re-analysis of the deposited data

Results flagged for a closer look

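SYT7 moved in opposite directions in the 2 lines. Its level was higher in all 3 A549 shRAD21 libraries than the control mean, with a log2 fold change of 0.84, and lower in all 3 H358 shRAD21 libraries, with a log2 fold change of -0.14 that did not pass the test (adjusted p = 0.365, edgeR). The difference between the lines was not tested. The H358 groups overlapped, and the A549 levels were under 5 CPM.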

How the results depend on the processing

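Among called members 0 changed direction under any alternative run. In H358, 2 values that were not called changed sign with 1 library left out, UNC13A at 0.24 without shNC replicate 2 and UNC13D at 0.01 without shRAD21 replicate 3. Of the values of single members, 409 kept their side of the threshold, 15 lost it and 10 gained it. The number of members called in the A549 knockdown was 9 to 10 with a library left out, STX1A being the one lost (adjusted p = 0.0559 and 0.0715 without shRAD21 replicate 1 and 2), and 9 when its 6 libraries were fitted alone, where STX1A was again lost (adjusted p = 0.0574). In H358, 1 member was called, against 2 with no filter on low counts, 2 with the DESeq2 Wald test, 2 with only the 6 libraries of the line, 4 with GC content and exon length offsets, and 3 with those offsets and the replicate block. In the overexpression the count of 9 became 5 without EV replicate 2 and 5 without EV replicate 3, and lay between 5 and 9 with any library left out. The adjusted p then reached 0.124 for SYT7, 0.0975 for UNC13A, 0.0849 for UNC13D, 0.0561 for CACNG8 and 0.0522 for STX1A. SYT7 also missed the threshold with DESeq2 (adjusted p = 0.0562).

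Over all genes, 4780 were called in the A549 knockdown, 3066 with only the 6 libraries of the line and 3443 to 8430 with a library left out, the highest being without shRAD21 replicate 3. In H358, 1591 were called, 4473 with only its 6 libraries, 1038 with the replicate block, 3196 with GC content and exon length offsets, 2868 with both, and 755 to 874 with any library left out. In the overexpression, 4297 were called and 2177 to 5536 with a library left out, the counts without EV replicate 1, 2 and 3 being 2440, 2177 and 2705. The causes were not tested.

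Replicate numbers showed no clear pairing of the libraries. The correlation of same-numbered libraries' deviations lay between -0.0369 and 0.0674, and that of differently numbered ones between -0.0514 and 0.0338. With 3 libraries per group a pairing could be missed. Under the replicate block the genes called numbered 4244, 1038 and 4387, and the members called 10, 1 and 9. Not every library correlated best with its own number. At this depth, 5 members in H358 could be given as counts only.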

Other observations

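Of 6 epithelial markers tested, 5 were higher and 1 lower in A549 shRAD21, 1 was higher in H358 shRAD21 (CDH1, log2 fold change 0.25, adjusted p = 0.0341, edgeR), and 2 were higher and 1 lower in RAD21OE. Their summed level was 9567 to 10080 CPM in A549 shNC and 12550 to 15800 in shRAD21, and 5506 to 5867 and 5647 to 5854 in H358. Of the lung lineage markers, NKX2-1 rose in H358 shRAD21 (log2 fold change 0.35, adjusted p = 0.0102).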
